A study of Mus musculus with 12 samples.

Results

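The 37 type I interferon-stimulated genes followed here were taken from a list of symbols, which has no threshold on measured values but was drawn up with earlier results of these data known. All 37 were found among the 56923 genes of the count table, and all 37 were among the 18529 genes tested. RNA-seq had been performed on back skin of 12 female mice on a C57BL/6 background, aged 8 to 10 weeks, in 4 groups of 3. WT littermates and mice labelled Lcn2-/- received either 5% imiquimod (IMQ) cream or vehicle cream on the shaved back for 6 days, and the groups are named WT con, WT IMQ, Lcn2-/- con and Lcn2-/- IMQ. The sample labels write knockdown for the genotype and list no treatment for control mice, and the study's methods, which were followed, give a purchased Lcn2-/- line and a vehicle. Replicate numbers name mice, and nothing in the labels ties a number in one group to the same number in another.

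Type I interferons bind a receptor of the chains IFNAR1 and IFNAR2, and the kinases JAK1 and TYK2 then signal to transcription factors, among them STAT2 and IRF9. These bind the interferon-stimulated response element in the promoters of the genes described here, whose products sense, block or degrade viral RNA and tune the pathway itself. IMQ is a ligand of the endosomal receptor TLR7, which signals through MYD88 to IRF7 and, in plasmacytoid dendritic cells, to interferon alpha.

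The response element was looked for in the promoter windows of RefSeq (GRCm38.p6), which run from 250 bases before to 50 bases after a gene's start and were given for 27 of the 37 genes. The core letters GAAANNGAAA, searched on both strands, were in 15 of these 27 windows (55.6%) and in 3.99% of the 27025 genes with a window. The longer form GAAANNGAAACT, which contains the core, was in 9 of the 27 (33.3%) against 0.303% of all genes. Stretches of 60 bases before the start are given for 6 genes whose levels the results turn on or contrast, 5′ to 3′ along the gene, with each core match in capitals (as its reverse complement where the match lies on the other strand, and joined where matches overlap).
Ifit1: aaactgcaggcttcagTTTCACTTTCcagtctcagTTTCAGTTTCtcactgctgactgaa
Ifit3: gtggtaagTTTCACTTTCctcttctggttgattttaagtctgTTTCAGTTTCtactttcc
Isg15: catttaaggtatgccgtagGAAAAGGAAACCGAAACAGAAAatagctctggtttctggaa
Rsad2: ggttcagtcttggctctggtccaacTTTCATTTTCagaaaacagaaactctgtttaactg
Oas1a: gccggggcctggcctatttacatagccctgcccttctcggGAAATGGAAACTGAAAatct
Bst2: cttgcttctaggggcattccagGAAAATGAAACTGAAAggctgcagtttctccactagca
These lie at chr19:34640769-34640828 (plus strand), chr19:34583365-34583424 (plus strand), chr4:156200856-156200915 (minus strand), chr12:26456538-26456597 (minus strand), chr5:120907526-120907585 (minus strand) and chr8:71537565-71537624 (minus strand), in that order. The stretch of Ifit3 is shared with its neighbour Ifit3b, at chr19:34607761-34607820 (plus strand), with 0 of 60 bases differing. A match of letters is a description of the window and no measure of binding.

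Libraries held between 16448226 and 28592110 counts, and levels are given as CPM, reads scaled to a common library size with TMM scaling. Lcn2, the targeted gene, was counted in every library labelled Lcn2-/-: it stood at 6.28, 8.64 and 4.57 CPM in WT con, 61.2, 183 and 76.1 CPM in WT IMQ, 10.5, 9.22 and 15.9 CPM in Lcn2-/- con and 34.3, 29.9 and 49.8 CPM in Lcn2-/- IMQ. Every Lcn2-/- IMQ mouse was below every WT IMQ mouse, and every Lcn2-/- con mouse was above every WT con mouse. Where in the gene these reads lie was not analysed here. Whether they go against the label was therefore not settled, and every direction drawn between genotypes rests on the labels alone. The extraction protocol in the labels names retinas. Of 8 retina markers 2 had no count in any mouse and the summed level of the list was at most 2.91 CPM, whereas 8 keratinocyte markers summed to between 4541 and 38929 CPM.

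**Figure D1:**
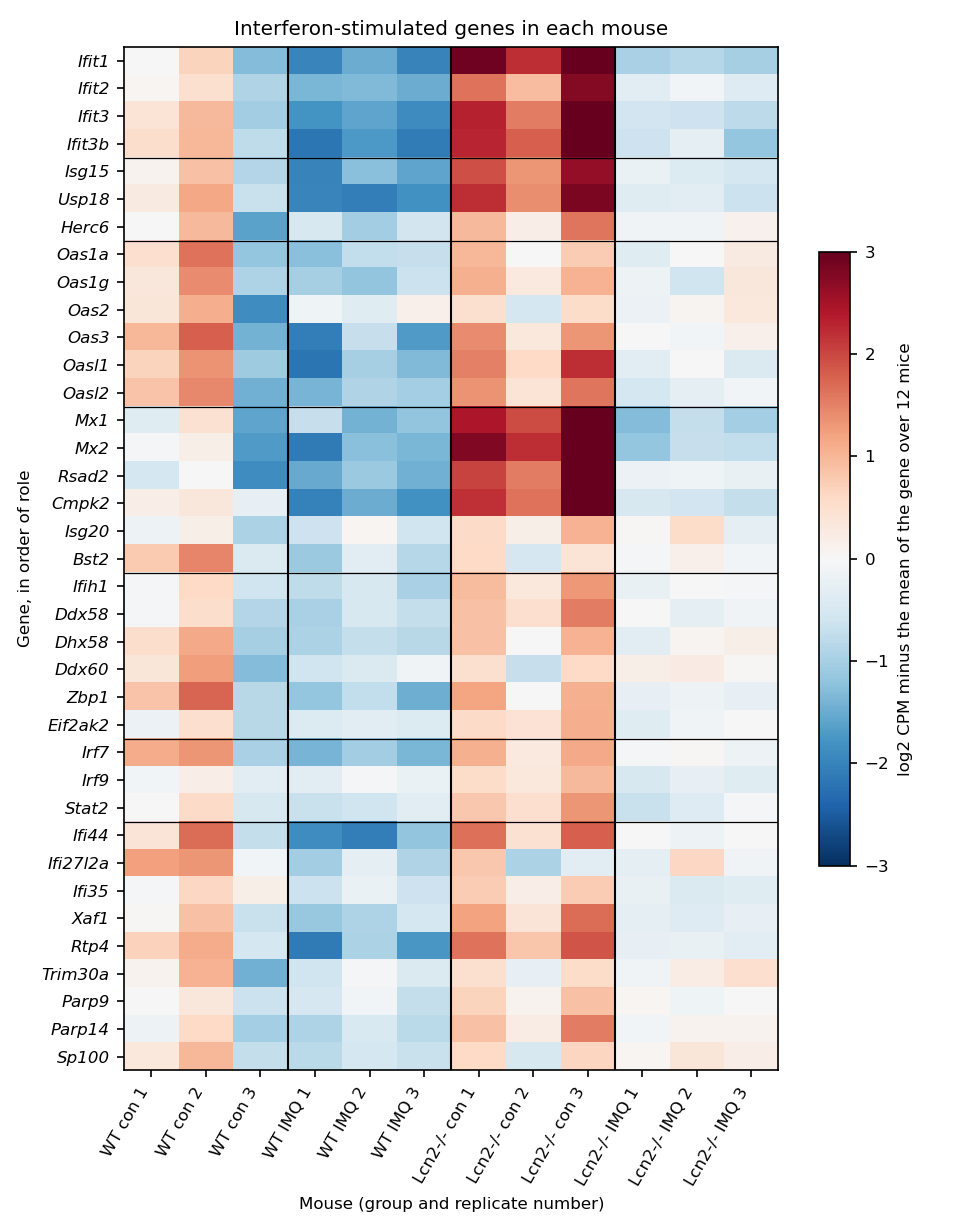
Level of each of the 37 interferon-stimulated genes (rows, ordered by role with lines between roles) in each of the 12 mice (columns), as log2 CPM minus the mean of that gene over the 12 mice; red is above and blue below that mean, and the colour scale ends at 3 on either side. Lcn2-/- con mice carry the deepest red in the IFIT rows and in Mx1, Mx2, Rsad2 and Cmpk2, and WT con replicate 3 is pale or blue in most rows while WT con replicate 2 is red in most.

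Control skin carried more of these transcripts than IMQ skin, and its mice varied more. The geometric mean level of the 37 genes was 23.6, 36.8 and 10.2 CPM in WT con and 8.42, 10.8 and 9.57 CPM in WT IMQ. It was 47.7, 28.2 and 62.3 CPM in Lcn2-/- con and 15.8, 17.5 and 16.9 CPM in Lcn2-/- IMQ. By this mean WT con replicate 3 lay among the IMQ mice, and the Lcn2-/- con mice lay above all other mice but WT con replicate 2. Among the WT con mice, replicate 2 was the highest in 37 of 37 genes and replicate 3 the lowest in 36. Among the Lcn2-/- con mice, replicate 3 was the highest in 31 genes and replicate 2 the lowest in 37. The highest mouse stood above the lowest of its group by a median of 3.68-fold over the 37 genes in WT con, 2.29-fold in Lcn2-/- con, 1.42-fold in WT IMQ and 1.22-fold in Lcn2-/- IMQ. Per kilobase of exon, the order in WT con ran from Ifi27l2a at 317 RPKM and Bst2 at 78.0 RPKM to Herc6 at 0.911 RPKM and Mx2 at 0.887 RPKM, and in Lcn2-/- con Mx2 stood at 9.67 RPKM (all as group means).

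IMQ in WT skin went with lower levels of the IFIT, ISG15 and OAS families. A gene was called when the Benjamini-Hochberg adjusted p of edgeR's quasi-likelihood test, over all genes tested, was under 0.05. Against WT con, 20 of the 37 genes were lower in WT IMQ (14.3% of all genes tested were called lower) and 0 were higher (14.2% of all genes). All 37 fold changes were below 0 on the log2 scale, with a median of -1.30 beside -0.02 over all genes tested. In 12 of the 37 genes every WT IMQ mouse was below every WT con mouse, a separation seen in 20.6% of all genes in this direction.

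All 4 IFIT genes, whose products bind foreign RNA and hold back its translation, fell in WT IMQ. Ifit3 was at 45.1, 66.9 and 16.5 CPM in WT con and 9.88, 11.4 and 9.2 CPM in WT IMQ, so that even the lowest control mouse was above the IMQ mice (log2 fold change -2.08 ± 0.45 (SE), adjusted p = 0.00593). Ifit1 went from 21.1, 33 and 8.4 to 5.27, 7.39 and 5.23 CPM (log2 fold change -1.81 ± 0.47 (SE), adjusted p = 0.0144), a fall of 3.51-fold, and the lowest control mouse was close to the highest IMQ mouse. Ifit3b went from 11.5, 15.8 and 4.68 to 1.76, 2.42 and 1.84 CPM with no overlap (-2.42 on the log2 scale), and Ifit2 fell as well (-1.37). Ifit3 and Ifit3b share 31.7% and 27.4% of their 100-base stretches with each other in the GENCODE M21 transcripts, so reads could have been split between them.

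The ubiquitin-like modifier Isg15 was at 14.3, 24.7 and 7.23 CPM in WT con and at 3.33, 5.65 and 4.46 CPM in WT IMQ (log2 fold change -1.79 ± 0.43 (SE), adjusted p = 0.00996). Usp18, the protease that removes ISG15 from proteins and also damps the interferon receptor, was at 11, 20.2 and 5.74 and 2.3, 2.15 and 2.57 CPM (log2 fold change -2.39 ± 0.45 (SE), adjusted p = 0.00269). For both genes the 3 IMQ mice lay below the 3 control mice. Herc6, the ligase that attaches ISG15 in mice, was not called (-0.8, adjusted p = 0.267).

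The OAS family is named for synthetases whose oligoadenylate product switches on RNase L, an activity not shared by every member, and 5 of its 6 genes fell in WT IMQ. Oas3 went from 13.2, 23.1 and 2.5 CPM to 1.58, 4.1 and 2.03 CPM (log2 fold change -2.35 ± 0.64 (SE), adjusted p = 0.0185). Oasl2 went from 71.3, 108 and 14.7 CPM to 15, 21.2 and 19.5 CPM (log2 fold change -1.8 ± 0.54 (SE), adjusted p = 0.028). In each of the 6 OAS genes WT con replicate 3 lay within or below the range of the IMQ mice, so no OAS gene separated the groups mouse by mouse. Oasl1 (-2.04), Oas1a (-1.59) and Oas1g (-1.49) fell too, Oas2 was not called (-0.39, adjusted p = 0.611), and Oas1a and Oas1g share 40.9% and 31.2% of their stretches with each other. The OAS calls rested on individual mice. Of the 6 fits with a mouse left out, Oas3 and Oasl1 kept the call in 3, and Oas1a, Oas1g and Oasl2 in 1.

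Among the remaining roles the calls were fewer. Irf7, the factor that amplifies interferon production downstream of TLR7, was at 97.2, 114 and 23 CPM in WT con and 17.1, 22 and 17.6 CPM in WT IMQ (log2 fold change -2.04 ± 0.45 (SE), adjusted p = 0.0064). Its partners in the interferon response, Stat2 and Irf9, were not called (-0.64, adjusted p = 0.102, and -0.13, adjusted p = 0.594). Of the 6 GTPases and membrane or nucleotide effectors, Cmpk2, a mitochondrial nucleotide kinase, went from 17, 18.8 and 12.4 to 3.64, 5.31 and 4.17 CPM (log2 fold change -1.88 ± 0.31 (SE), adjusted p = 0.00123). Bst2, the tether that holds budding virus at the membrane, went from 70.2, 111 and 29.9 to 18.8, 31.9 and 22.5 CPM, with overlap (-1.53, adjusted p = 0.0168), and Mx1, Mx2, Rsad2 and Isg20 were not called. Of the 6 nucleic acid sensors, Zbp1, which binds left-handed nucleic acid, went from 33.8, 62.6 and 10.5 to 8.42, 11.3 and 6.78 CPM, with overlap (-2.02, adjusted p = 0.0134). Dhx58 fell too (-1.3, adjusted p = 0.0441), and Ifih1, Ddx58, Ddx60 and Eif2ak2 were not called. Of the 9 remaining genes, Ifi44 went from 6.38, 15.6 and 2.98 to 1.33, 1.14 and 2.13 CPM, with no overlap (-2.42, adjusted p = 0.00806). Rtp4 (-2.11), Ifi27l2a (-1.65) and Ifi35 (-0.77) fell, with values on the log2 scale. The count of 20 rested on individual mice. It was 29 without WT con replicate 3 (12% of all genes tested in that fit were called lower), but 8 without WT con replicate 2 (11.9%), 7 without WT IMQ replicate 1 (7.92%) and 8 without WT IMQ replicate 3 (8.85%). It was 10 with no filter on low counts (6.66%). Ifit3, Ifit3b, Usp18, Cmpk2, Irf7, Ifi44 and Rtp4 were called in every one of these and the other fits run for this comparison.

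**Figure D2:**
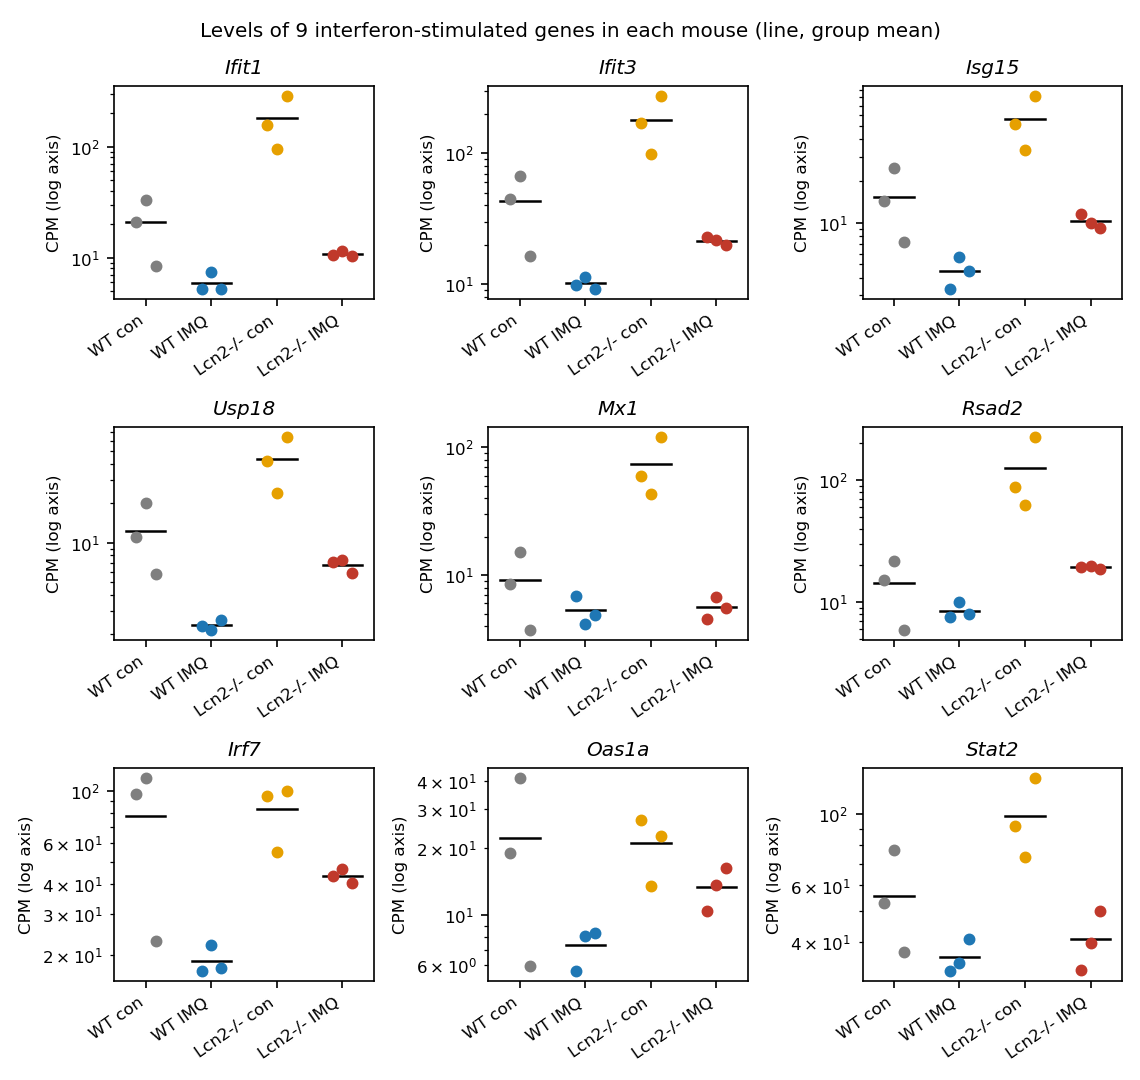
CPM of 9 interferon-stimulated genes in each mouse on log axes, with the mean of each group as a line. In Ifit1, Mx1 and Rsad2 the 3 Lcn2-/- con mice sit above all 9 other mice, whereas in Irf7 and Oas1a the 2 control groups overlap; Mx1 lies between 3.72 and 15.2 CPM in the 9 mice outside Lcn2-/- con.

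The same treatment in mice labelled Lcn2-/- went with lower levels of the IFIT genes, the Mx genes and Rsad2. Against Lcn2-/- con, 19 of the 37 genes were lower in Lcn2-/- IMQ (11.2% of all genes tested) and 0 were higher (14.1% of all genes). The median log2 fold change was -1.07 beside -0.05 over all genes tested, and 36 of the 37 values were below 0, Ifi27l2a being the exception (0.1, adjusted p = 0.9). In 27 genes every Lcn2-/- IMQ mouse was below every Lcn2-/- con mouse (22.8% of all genes in this direction).

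Ifit1 was at 158, 96 and 288 CPM in Lcn2-/- con and 10.6, 11.5 and 10.4 CPM in Lcn2-/- IMQ, a 16.7-fold fall (log2 fold change -4.06 ± 0.49 (SE), adjusted p = 0.000299). Mx2 was at 27.4, 18.5 and 58.9 and 1.77, 2.46 and 2.4 CPM, 15.8-fold lower (log2 fold change -3.98 ± 0.53 (SE), adjusted p = 0.000487). Mx1 was at 59.5, 43.3 and 121 and 4.52, 6.72 and 5.52 CPM (log2 fold change -3.74 ± 0.51 (SE), adjusted p = 0.00058). The Mx proteins are dynamin-like GTPases that trap viral nucleocapsids, and C57BL/6 mice carry a defective Mx1 gene whose transcript is nevertheless counted here. Rsad2, or viperin, an enzyme that makes a chain-terminating nucleotide, went from 87.5, 62.9 and 226 to 19.2, 19.8 and 18.5 CPM (log2 fold change -2.71 ± 0.49 (SE), adjusted p = 0.00296). Its neighbour on chromosome 12, Cmpk2, went from 67.6, 45.7 and 118 to 10.6, 9.94 and 8.99 CPM (log2 fold change -2.97 ± 0.31 (SE), adjusted p = 0.000114). In each of these genes the lowest control mouse was above the highest IMQ mouse.

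Ifit2 (-2.22), Ifit3 (-3.07), Ifit3b (-3.18), Isg15 (-2.44) and Usp18 (-2.69) fell as well, all log2. Of the transcription factors, Stat2 went from 91.6, 73.7 and 129.9 to 32.7, 39.6 and 50.1 CPM (log2 fold change -1.27 ± 0.27 (SE), adjusted p = 0.00688), and Irf9 from 76.1, 64.8 and 101 to 36.9, 43.3 and 40.2 CPM (log2 fold change -1.0 ± 0.17 (SE), adjusted p = 0.00202). Irf7 was at 94.9, 55.1 and 99.7 CPM and 43.2, 46.5 and 40.4 CPM, with every IMQ mouse below the controls but no call (-0.94, adjusted p = 0.134). The RNA helicases Ifih1 and Ddx58, which sense long and 5′-triphosphate RNA, fell (-0.98 and -1.15), as did the RNA-activated kinase Eif2ak2 (-0.89). Ddx58 went from 66.4, 51.2 and 105 to 36.6, 29.99 and 33.9 CPM, with no overlap. Of the OAS family only Oasl1 was called (-1.82, adjusted p = 0.0307), and of the 9 remaining genes Rtp4 (-1.77), Xaf1 (-1.48) and Ifi35 (-0.94) fell. Leaving out each mouse in turn left between 14 and 22 of the 37 called lower (5.06% to 10.1% of all genes tested in those fits). Of the 6 fits with a mouse left out, Ifih1 and Oasl1 kept the call in 1, Ddx58 and Eif2ak2 in 2 and Xaf1 in 3. The other 14 called genes were called in every fit run for this comparison.

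By call, 10 genes fell in both genotypes (Ifit1, Ifit2, Ifit3, Ifit3b, Isg15, Usp18, Oasl1, Cmpk2, Ifi35 and Rtp4), 10 in WT alone and 9 in mice labelled Lcn2-/- alone. The remaining 8, Herc6, Oas2, Isg20, Ddx60, Trim30a, Parp9, Parp14 and Sp100, were called in neither. Of the 10 called in both, only Ifit3, Ifit3b, Usp18, Cmpk2 and Rtp4 were called in every fit of both comparisons. In WT, Ifit2 kept the call in 1 of 6 fits with a mouse left out, and Ifit1 and Ifi35 in 3. A call in one genotype and not in the other does not show a difference between them, which was tested as the interaction. Of the 37 genes, 1 had a lower IMQ response in mice labelled Lcn2-/- than in WT (0.783% of all genes tested were called in this direction) and 0 a higher one (1.37% of all genes). This was Mx1 (log2 fold change -2.94 ± 0.68 (SE), adjusted p = 0.0498), whose WT levels were 8.6, 15.2 and 3.72 CPM in controls and 6.85, 4.17 and 4.89 CPM after IMQ, with overlapping groups. It was called with RLE size factors and DESeq2 but not with no filter on low counts or with replicate number as a block, and it kept the call in 4 of 12 fits with a mouse removed. For Mx2 the difference was -2.76 ± 0.73 (SE, adjusted p = 0.0679) and for Ifit1 -2.25 ± 0.65 (adjusted p = 0.0832), neither of them called. At an unadjusted p under 0.05 with a fold change above 2, 5 genes were lower (4.91% of all genes) and 2 higher (6.06% of all genes). DESeq2 called 5 genes here, all lower (Ifit1, Mx1, Mx2, Rsad2 and Irf9), beside 4.71% of all genes it tested. Without WT con replicate 3 the calls were Mx1 and Mx2, lower (1.54% of all genes), and Bst2 and Irf7, higher (4.37% of all genes). The median difference was -0.25 over the 37 genes and -0.02 over all genes tested, and 16 genes were above and 21 below 0.

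**Figure D3:**
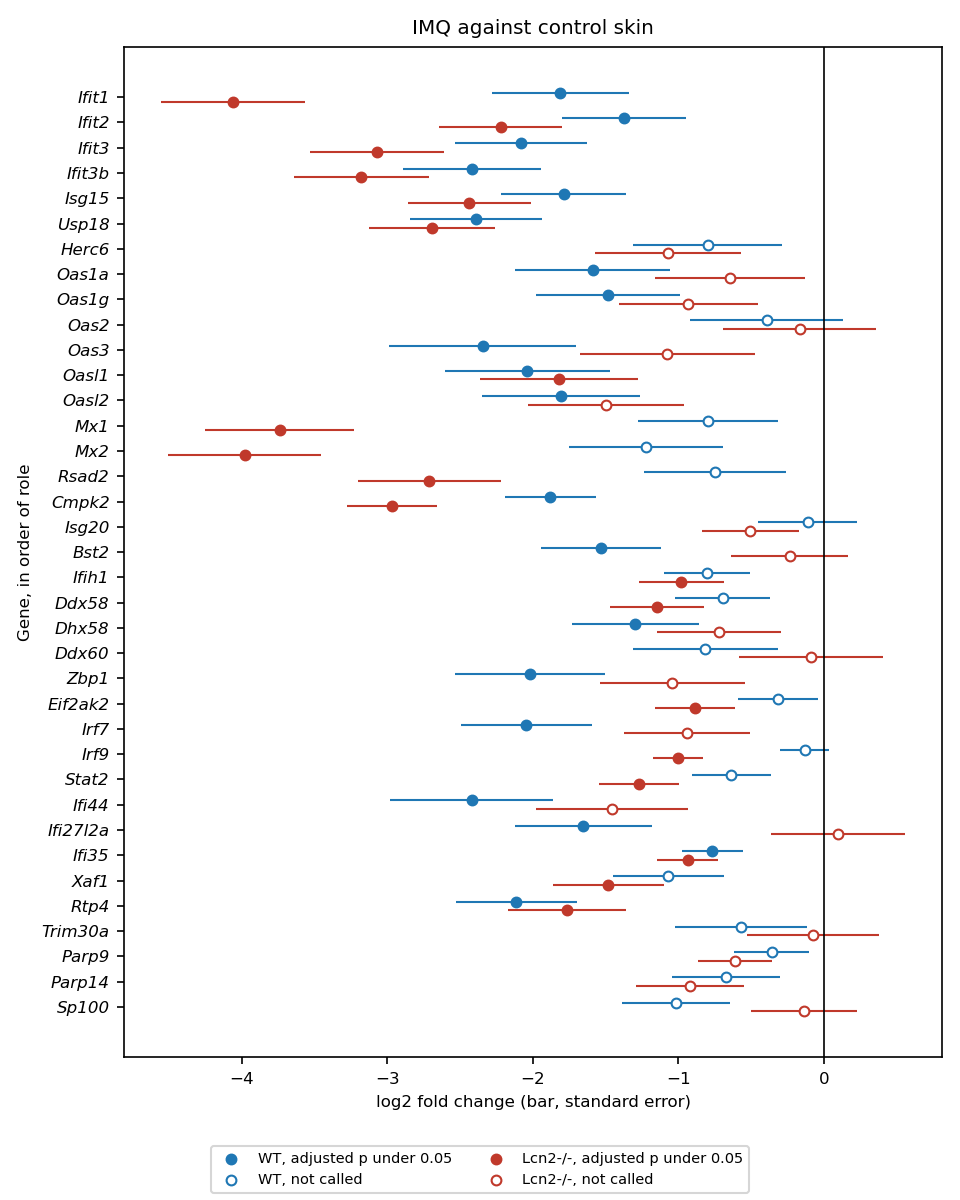
Log2 fold change of IMQ against control skin for each of the 37 genes, in WT (blue) and in mice labelled Lcn2-/- (red), with standard errors as bars; filled points have an adjusted p under 0.05. All but 1 of the values lie below 0 (Ifi27l2a in mice labelled Lcn2-/-), and the red points lie farthest to the left in Ifit1, Mx1 and Mx2.

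In control skin the genotype labels were compared next, with WT con and Lcn2-/- con each shared with an IMQ comparison above. None of the 37 genes was called by edgeR in either direction (0.0054% of all genes tested were called higher and 0.0054% lower, 1 gene each). At an unadjusted p under 0.05, 20 of the 37 were higher in Lcn2-/- con (2.65% of all genes) and 0 were lower (3.95% of all genes). DESeq2 called 10, all higher: Ifit1, Ifit2, Ifit3, Ifit3b, Isg15, Usp18, Mx1, Mx2, Rsad2 and Cmpk2, beside 0.301% of all genes it tested. By edgeR at an unadjusted p under 0.05 with a fold change above 2, 12 were higher (1.35% of all genes). In 12 genes (the 10 called by DESeq2 with Isg20 and Irf9) every Lcn2-/- con mouse was above every WT con mouse (4.19% of all genes in this direction). The median log2 fold change was 0.82 beside 0.00 over all genes tested, with 30 of the 37 values above 0.

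The values in control skin differed most for Mx2, which was at 3.88, 4.51 and 1.22 CPM in WT con and 27.4, 18.5 and 58.9 CPM in Lcn2-/- con (log2 fold change 3.43 ± 0.50 (SE), adjusted p = 0.0728). For Rsad2 they were 15, 21.7 and 5.9 CPM and 87.5, 62.9 and 226 CPM (log2 fold change 3.14 ± 0.50 (SE), adjusted p = 0.0861). For Ifit1 they were 21.1, 33 and 8.4 CPM and 158, 96 and 288 CPM (log2 fold change 3.11 ± 0.47 (SE), adjusted p = 0.0769). The smallest adjusted p was that of Cmpk2 (log2 fold change 2.26 ± 0.30 (SE), adjusted p = 0.054), just above the threshold. Ifit1, Mx2, Rsad2 and Cmpk2 were called higher without Lcn2-/- con replicate 1 (0.156% of all genes) and again without replicate 2 (0.0261%), and Cmpk2 was called with no filter on low counts (0.00862%). A fit of the control mice alone called 0 of the 37 higher (0% of all genes), with edgeR adjusted p = 0.939 for Ifit1 and 0.759 for Cmpk2. RLE size factors (0.0054%) and replicate number as a block (0%) called 0 as well. So did leaving out any other control mouse (at most 0.00522%). Other genes of the list had values near 0 in the same mice: Oas1a (-0.07 ± 0.51), Oas2 (-0.05 ± 0.52), Zbp1 (-0.1 ± 0.49), Irf7 (0.09 ± 0.43) and Sp100 (-0.01 ± 0.36), all log2 with SE. The lowest were Bst2 (-0.55 ± 0.40) and Ifi27l2a (-0.91 ± 0.46), a mitochondrial protein gene, which was at 178, 189.9 and 71.7 CPM in WT con and 134, 39.3 and 61 CPM in Lcn2-/- con. By role, the median was 2.09 for the IFIT genes, 1.82 for the ISG15 system, 2.64 for the GTPases and effectors, 0.69 for the transcription factors, 0.63 for the 9 remaining genes, 0.52 for the sensors and 0.21 for the OAS family.

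After IMQ, 28 of the 37 genes were higher in every Lcn2-/- IMQ mouse than in any WT IMQ mouse (16% of all genes tested separated in this direction), yet edgeR called 0 of them higher (2.19% of all genes) and 0 lower (2.6% of all genes). At an unadjusted p under 0.05, 13 were higher (12.5% of all genes) and 0 lower (14.5% of all genes), and 11 were higher with a fold change above 2 as well (3.1% of all genes). The median log2 fold change was 0.82 beside -0.02 over all genes tested, and 36 of the 37 values were above 0. Irf7 was at 17.1, 22 and 17.6 CPM in WT IMQ and 43.2, 46.5 and 40.4 CPM in Lcn2-/- IMQ (log2 fold change 1.2 ± 0.44 (SE), adjusted p = 0.117). Usp18 was at 2.3, 2.15 and 2.57 and 7.08, 7.31 and 5.82 CPM (log2 fold change 1.52 ± 0.45 (SE), adjusted p = 0.0709). Rtp4, which encodes a receptor transporter, was at 5.27, 11.8 and 6.83 and 19.5, 19.7 and 18.5 CPM (log2 fold change 1.28 ± 0.41 (SE), adjusted p = 0.0856). In each of the 3 genes the groups did not overlap. The role medians lay closer together than in control skin, from 0.18 for the transcription factors to 1.2 for the ISG15 system. The count depended on the setting: 22 genes were called higher when only these 6 mice were fitted (6.34% of all genes tested), 8 with DESeq2 (6.45%), and 2 (Cmpk2 and Rtp4) without WT IMQ replicate 2 (6.69%). It stayed at 0 with RLE size factors (2.31%), no filter on low counts (1.15%) and replicate number as a block (0.416%). Leaving out any other IMQ mouse also gave 0 (at most 0.00521%). The fit over all 12 mice shared 1 estimate of the spread per gene, to which the control mice contributed.

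**Figure D4:**
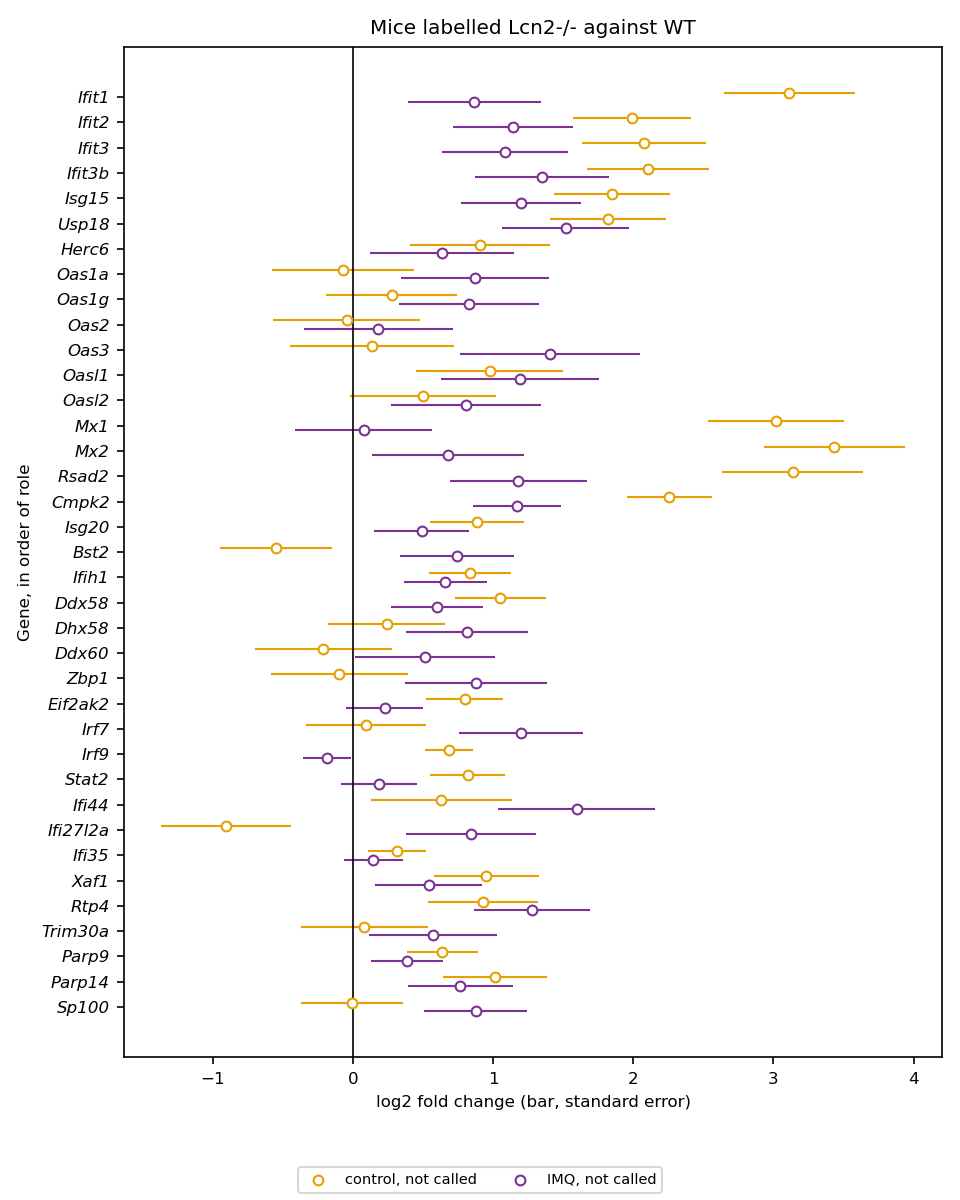
Log2 fold change of mice labelled Lcn2-/- against WT mice for each of the 37 genes, in control skin (orange) and after IMQ (purple), with standard errors as bars; no point has an adjusted p under 0.05. In control skin the values spread from -0.91 (Ifi27l2a) to 3.43 (Mx2), and after IMQ from -0.18 (Irf9) to 1.60 (Ifi44).

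The interferons themselves were barely counted in skin. Of 20 type I and III ligands 0 were tested, 12 had no count in any mouse and 18 had at most 3 counts in every mouse. Ifnb1 had 2, 3 and 0 counts in WT con, 1, 2 and 4 counts in Lcn2-/- con and 0 counts in all 6 IMQ mice. Ifna2 had 5, 0 and 1 counts in Lcn2-/- con and 0 elsewhere. Ifnk, a keratinocyte interferon, had at most 3 counts in any mouse. A count of 0 allows up to 3 counts, or between 0.105 and 0.182 CPM depending on the library, and this covers counting error only. At this depth no difference in the ligands was detectable.

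The counts on the lists that follow stand beside 14.2% of all genes called higher and 14.3% lower in WT IMQ, and 14.1% higher and 11.2% lower in Lcn2-/- IMQ. For Lcn2-/- IMQ against WT IMQ the shares were 2.19% higher and 2.6% lower. For the difference of IMQ responses they were 1.37% higher and 0.783% lower. Nothing is read from a list near these shares. Of the receptors, kinases and transcription factors of the pathway, in WT IMQ 1 of the 8 genes on this list (2 of which, Stat2 and Irf9, are also among the 37) was higher, Ifnlr1, the interferon lambda receptor (0.8, adjusted p = 0.0179), and 0 were lower. In Lcn2-/- IMQ against Lcn2-/- con 4 were higher, Ifnar1 (0.75, adjusted p = 0.00393), Ifnar2 (1.19, adjusted p = 0.00568), Il10rb (1.33, adjusted p = 0.00278) and Jak1 (0.65, adjusted p = 0.0238), and 3 were lower, Ifnlr1 (-0.96, adjusted p = 0.00931), Stat2 and Irf9. Tyk2 was called in neither comparison (-0.12 and 0.26, log2). Ifnlr1 was the one gene of this list called for a difference of IMQ responses (-1.76, adjusted p = 0.0251) and for a lower level in Lcn2-/- IMQ than in WT IMQ (-1.17, adjusted p = 0.026).

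On the route from TLR7 and TLR9 to IRF7, 3 of 11 genes were higher and 1, Irf7 itself, was lower in WT IMQ. The 3 were the adaptor Myd88 (0.92, adjusted p = 0.000982), the kinase Irak4 (0.83, adjusted p = 0.0145) and the ligase Traf6 (1.15, adjusted p = 0.000469). In Lcn2-/- IMQ 6 were higher and 0 lower: these 3 with Tlr7 (2.0, adjusted p = 0.00985), its chaperone Unc93b1 (2.3, adjusted p = 0.00346) and Irf5 (0.83, adjusted p = 0.0293). Tlr7 was at 33, 64 and 12.2 CPM in WT con, 26.8, 46 and 25.5 CPM in WT IMQ, 25.1, 14.8 and 19.2 CPM in Lcn2-/- con and 74.6, 76.7 and 85.6 CPM in Lcn2-/- IMQ. Of the 7 cytosolic sensing adaptors, the kinases Tbk1 (0.45, adjusted p = 0.0172) and Ikbke (1.07, adjusted p = 0.0127) were higher in WT IMQ, and Tbk1 alone in Lcn2-/- IMQ (0.36, adjusted p = 0.0497). Among 7 inhibitors of the pathway, 2 of which (Usp18 and Isg15) are also among the 37, Socs3 was higher in WT IMQ (2.57, adjusted p = 0.000427) and in Lcn2-/- IMQ (1.49, adjusted p = 0.0103), where Ptpn6 and Pias1 were higher too, and Socs1 was not called in either. Of the type II interferon list, Ifng had at most 10 counts in any mouse and Irf1 was lower in Lcn2-/- IMQ (-0.96, adjusted p = 0.0366), while the receptor chains Ifngr1 (0.78) and Ifngr2 (0.41) were higher there and Jak2 was higher in WT IMQ (0.49, adjusted p = 0.0302). None of these lists had a call between the genotypes in control skin.

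Markers of several cell types moved with the groups, and in bulk skin fewer cells of a type and less RNA per cell cannot be told apart. The 8 keratinocyte markers summed to between 4541 and 7475 CPM in WT con and between 29704 and 38929 CPM in WT IMQ, and to between 5023 and 6208 CPM in Lcn2-/- con and between 16944 and 28113 CPM in Lcn2-/- IMQ. In either genotype 7 of the 8 were called higher after IMQ and 0 lower. Neutrophil markers, 7 of 8 higher in WT IMQ and 8 of 8 in Lcn2-/- IMQ, summed to at most 73.8 CPM in the controls and at least 3768 CPM after IMQ. Whether these larger shares of keratinocyte and neutrophil RNA account for lower CPM of the 37 genes was not tested.

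The 6 macrophage markers summed to 1525, 2964 and 700.2 CPM in WT con, the same order of mice as the 37 genes had there. This order was not particular to macrophage markers. The sums of leukocyte, monocyte, fibroblast and adipocyte markers, among others, had it too, and those of keratinocyte and plasmacytoid dendritic cell markers the reverse order. The macrophage markers summed to 1197, 608 and 734 CPM in Lcn2-/- con, where replicate 2 was again lowest but replicate 1 was above replicate 3. They summed to 1677, 2857 and 1565 CPM in WT IMQ and to 2644, 3304 and 3631 CPM in Lcn2-/- IMQ. Of these markers 1 of 6, Adgre1, was called higher in WT IMQ (1.68, adjusted p = 0.013) and 6 of 6 in Lcn2-/- IMQ, and 0 were called between the genotypes in control skin, where their median log2 fold change was -1.06. The 5 leukocyte markers ran from 298 to 791 CPM in WT con, 528 to 853 CPM in WT IMQ, 229 to 486 CPM in Lcn2-/- con and 936 to 1247 CPM in Lcn2-/- IMQ, with 5 of 5 called higher in Lcn2-/- IMQ against Lcn2-/- con and 0 in WT IMQ. The 3 Lcn2-/- con mice held the highest levels of Ifit1, Mx1 and Rsad2 of all mice. The part of macrophages and other leukocytes in the results was not tested.

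**Figure D5:**
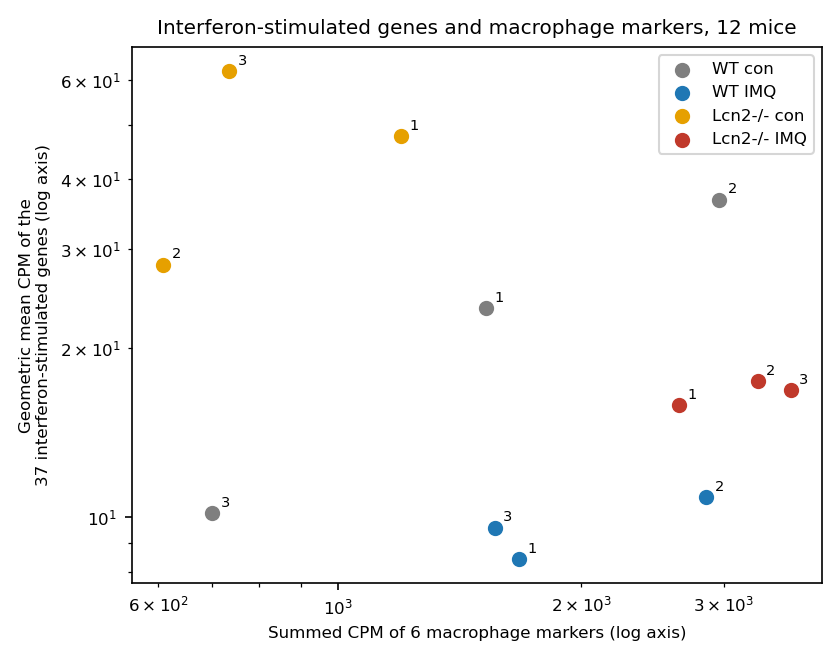
Geometric mean CPM of the 37 interferon-stimulated genes (vertical, log axis) against the summed CPM of 6 macrophage markers (horizontal, log axis) in each of the 12 mice, labelled by replicate number within the group. Lcn2-/- con mice lie at the upper left, WT con mice run from the lower left (replicate 3) to the upper right (replicate 2), and the IMQ mice of both genotypes lie below 18 CPM on the vertical axis.

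Of the 8 plasmacytoid dendritic cell markers, Siglech, the defining one, was at 3, 2.79 and 2.02 CPM in WT con, 0.485, 1.14 and 0.63 CPM in WT IMQ, 3.19, 1.12 and 2.63 CPM in Lcn2-/- con and 4.46, 2.05 and 2.52 CPM in Lcn2-/- IMQ. It was lower in WT IMQ than in WT con (-1.8, adjusted p = 0.0157) and higher in Lcn2-/- IMQ than in WT IMQ (2.0, adjusted p = 0.0429). In WT IMQ 3 of the 8 were lower (Siglech, Cox6a2 and Runx2) and 2 higher (Ccr9 and Ly6d), and in Lcn2-/- IMQ 1 was lower (Runx2) and 3 higher (Ccr9, Tcf4 and Ly6d). The list's summed level, between 501 and 1768 CPM, was carried by Ly6d and Tcf4, which skin expresses outside these cells. Monocyte markers summed to between 375 and 1199 CPM in WT con and between 455 and 483 CPM in WT IMQ, with 1 of 5 higher and 1 lower by call. They summed to between 405 and 699 CPM in Lcn2-/- con and between 929 and 1132 CPM in Lcn2-/- IMQ, with 1 of 5 higher and 0 lower, and T cell markers had 3 of 6 lower in WT IMQ and 1 of 6 higher in Lcn2-/- IMQ. Fibroblast markers had 3 of 7 lower in WT IMQ and 4 higher in Lcn2-/- IMQ, and 3 were higher in Lcn2-/- IMQ than in WT IMQ, where 2 of 8 keratinocyte markers were lower. In that comparison 2 of the 8 plasmacytoid dendritic cell markers and 1 of 8 neutrophil markers were higher. For the difference of IMQ responses 3 fibroblast markers and 1 plasmacytoid dendritic cell marker were called higher. Skeletal muscle markers had 4 of 5 lower in WT IMQ and 2 of 5 in Lcn2-/- IMQ, adipocyte markers 1 of 5 lower in each, and of 4 B cell markers the 1 tested was higher in both genotypes after IMQ.

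Several of the 37 genes overlap other genes in their exons in GENCODE M21, and the counting was not stated to use strand. Exons of 12 genes overlapped another gene, 5 of them on the same strand and 7 on the opposite strand. Among them, Irf7 overlaps Phrf1, Usp18 overlaps Gm44148, Parp9 overlaps Dtx3l and Dhx58 overlaps Dhx58os on the opposite strand, and Irf9 overlaps Rnf31 on the same strand, so some reads given to these genes may belong to their partners.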

How the data were processed

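The authors deposited 1 table of raw counts, whole numbers of reads per Ensembl gene in each of 12 libraries made from paired reads of 150 bp. The submitters' processing notes name HISAT and the genome build mm8, and the counter, annotation and strand setting are not given in the sources used here. Names, positions and exon lengths came from GENCODE M21 (GRCm38), which holds 52073 of the 56923 identifiers (91.5%); the others hold 0.567% of the counts.

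Counts were scaled by TMM and tested with edgeR 4.0.16 in R 4.3.3 (with limma 3.58.1), with a robust quasi-likelihood model in which each of 4 groups had a mean and all 12 mice entered. Low counts were filtered by filterByExpr, given the groups, with a minimum count of 10 and a minimum total count of 15. The first is a level to be reached in enough single mice, and the second applies over all mice. This left 18529 genes, and p-values were adjusted by Benjamini-Hochberg over all of them. The SE of a log2 fold change was derived from its F statistic. The common biological coefficient of variation was 0.253. Levels between genes were compared as RPKM, from CPM and the length of merged exons. DESeq2 1.42.0 on the same counts, RLE size factors, no filter on low counts, a fit of the compared groups alone, replicate number as a block, leaving out each mouse and other call rules were alternatives. The fit was tested on simulated data.

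Groups came from the sample labels. The list of 37 genes has no threshold on measured values, but these genes, the lists of pathway genes and cell markers and the tests were chosen with earlier results of these data known. Values by mouse are given for 20 of the 29 genes called in any comparison, and the other genes are given by fold change, range or count. Results on 1 gene of the pathway lists are not reported here. The 60-base stretches shown were chosen after the levels were seen. Library totals lay between 16448226 and 28592110 counts, and a floor of 3 counts is between 0.105 and 0.182 CPM. Counts of different libraries of a group differed by more than sampling noise, so each library counted as 1 replicate. Columns of the table were all used, and no comparison made by the authors was.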

Additional observations from a re-analysis of the deposited data

Results flagged for a closer look

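Mx1 was singled out because its IMQ response differed between the genotype labels in a test of the difference itself (interaction of edgeR's quasi-likelihood fit, log2 difference -2.94 ± 0.68 SE, adjusted p = 0.0498). Mx1 was at 8.60, 15.2 and 3.72 CPM in WT con, 6.85, 4.17 and 4.89 CPM in WT IMQ, 59.5, 43.3 and 121 CPM in Lcn2-/- con and 4.52, 6.72 and 5.52 CPM in Lcn2-/- IMQ. The 2 IMQ groups and WT con overlapped, and the difference lay in Lcn2-/- con. The adjusted p ran from 0.0324 to 0.153 when a mouse was left out and from 0.000475 to 0.126 in the other settings. Lcn2 was counted in the libraries labelled Lcn2-/-, so the direction rests on the labels.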

How the results depend on the processing

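The direction of every called gene was kept under every alternative run, and the medians of the 37 genes moved by less than the spread between mice. Shares in parentheses are of all genes tested in the same fit and direction. With no filter on low counts, 10 genes were lower in WT IMQ than in WT con (6.66%). In that fit 1 was higher in Lcn2-/- con than in WT con (0.00862%). For the difference of responses it called 0 higher (0.89%) and 0 lower (0.583%). DESeq2 called 10 genes higher in Lcn2-/- con than in WT con (0.301%), 8 higher in Lcn2-/- IMQ than in WT IMQ (6.45%) and 5 with a lower IMQ response in mice labelled Lcn2-/- (4.71%). A fit of the 6 IMQ mice alone called 22 higher in Lcn2-/- IMQ (6.34%). A fit of the control mice alone called 0 higher (0%) and 0 lower (0%) in Lcn2-/- con. At an unadjusted p under 0.05 with a fold change above 2, the counts were 12 higher in control skin (1.35%) and 11 higher after IMQ (3.1%). For the difference of responses they were 7, of which 2 were higher (6.06%) and 5 lower (4.91%). Same-numbered mice did not deviate together (mean correlation -0.05 over 18 pairs, 1 of them over 0.1), so the numbers were not taken as pairs. With replicate number as a block, 15 genes were lower in WT IMQ (11.9%) and 15 in mice labelled Lcn2-/- (8.21%). That fit called 0 of the 37 between the genotypes in control skin (0% of all genes either way). It called 0 after IMQ (0.416% of all genes higher, 0.318% lower) and 0 for the difference of responses (0.0378% higher, 0.0162% lower). Leaving out each mouse gave from 7 to 29 genes lower in WT (7.92% to 14.8%) and from 14 to 22 in mice labelled Lcn2-/- (5.06% to 10.1%). Between the controls from 0 to 4 were higher (0 to 0.156%), and between the IMQ groups from 0 to 2 (0 to 6.69%). For the difference of responses from 0 to 4 were called, with from 0 to 2 higher (0.0104% to 5.27%) and from 0 to 2 lower (0 to 4.74%). The median of this difference ran from -0.54 to 0.10. With 3 mice a group the spread is poorly known, and genes with at most 3 counts allow no comparison. The causes of these changes were not tested.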
